A study of Homo sapiens with 4 samples.

Results

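High-mobility-group (HMG) proteins are small, abundant, non-histone proteins that bind chromatin and change its shape. The coding genes of their 3 families were described here in a B-cell lymphoma line given the small molecule Spautin-1. The members are the 9 rows of the deposited count table named HMGA1, HMGB1, HMGB2, HMGB3, HMGN1, HMGN2, HMGN3, HMGN4 and HMGN5, of 61267 rows in all, and no pseudogene row is a member. The family was chosen by the deposited counts themselves: it was picked because HMGB genes tended to be lower in the Spautin-1 libraries. That comparison is the only one of the study, so their levels and fold changes are given as a description, with no p-value and as support for nothing.

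RNA sequencing was done on cells of SU-DHL-2, a human diffuse large B-cell lymphoma line long kept in culture, labelled as wild type and as lymph node tissue. The Spautin-1 group held 2 libraries from cells given the compound at 10 µM for 36 h, and the vehicle group held 2 libraries from cells given solvent. Spautin-1 is known to block USP10 and USP13, which remove ubiquitin from proteins. All libraries came from this single line in the same medium, and the labels do not say whether replicates were separate cultures, so SDs, SEs and p-values speak for the spread of these libraries alone, and that spread may be technical.

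HMGA proteins hold AT-hooks, short stretches that enter the minor groove of AT-rich DNA. HMGB proteins carry a pair of HMG boxes, folds that bend DNA sharply, followed by an acidic tail. HMGB1 also acts outside the cell, where it is released by dying or activated cells and read as a danger signal. HMGN proteins bind the nucleosome core itself and loosen chromatin, in competition with linker histone H1. Cycling lymphoid cells are known for high levels of HMGB1, HMGB2 and HMGN2.

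Many processed pseudogenes, intronless copies of mRNA placed elsewhere in the genome, derive from HMG genes, and the copies of HMGB1 bear directly on its counts. A stretch of 75 coding bases shows how alike they are. It spans coding positions 139 to 213 of HMGB1, counted from the A of the start codon, within its first HMG box. It was chosen as the gap-free stretch in which the 3 most highly counted copies differ most from HMGB1. Capitals in the HMGB1 line mark the 7 positions at which any of the 3 copies differs, and capitals in a copy's line mark its own differences. The sequences come from GENCODE 29 transcripts on GRCh38.
HMGB1: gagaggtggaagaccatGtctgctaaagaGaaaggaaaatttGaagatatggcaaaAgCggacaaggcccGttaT
HMGB1P5: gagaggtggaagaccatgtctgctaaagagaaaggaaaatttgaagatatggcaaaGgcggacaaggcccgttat
HMGB1P6: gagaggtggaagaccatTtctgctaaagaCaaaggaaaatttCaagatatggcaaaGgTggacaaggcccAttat
HMGB1P10: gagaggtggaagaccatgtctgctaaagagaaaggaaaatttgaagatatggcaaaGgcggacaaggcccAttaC
Even in this stretch HMGB1P5 (chromosome 3, 22381720 to 22382929, plus strand) differed from HMGB1 at 1 base, HMGB1P6 (chromosome 15, 71164770 to 71165415, minus strand) at 6 and HMGB1P10 (chromosome 22, 26560526 to 26561088, plus strand) at 3. Over its 642-base transcript HMGB1P5 was 98.8% identical to HMGB1, and 71.0% of its 50-base words and 41.1% of its 100-base words occurred unchanged in an HMGB1 transcript. The counted row of HMGB1P5 spans 1210 exonic bases, and the rest of it was not compared. HMGB1P6 was 98.1% identical over 646 bases, with 39.3% of 100-base words shared. HMGB1P10 was 97.3% identical over 563 bases and shared none of its 100-base words. The coding genes are less alike. HMGB1 and HMGB2 were 76.7% identical over their coding bases, HMGB1 and HMGB3 71.8%, and HMGB2 and HMGB3 72.1%. HMGN4, a close relative of HMGN2, was 86.4% identical to it, and HMGN1 and HMGN2 were 56.7% identical.

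Total counts ranged from 34893634 to 38325536 in the Spautin-1 libraries and from 34115420 to 38362526 in the vehicle libraries. The 12 B-cell markers examined were all detected and summed to 1350 to 1360 CPM (reads relative to the effective size of the library) in Spautin-1 and to 864 to 952 CPM in vehicle. The 15 markers of other cell types summed to 63.2 to 65.9 CPM in Spautin-1 and 55.3 to 62.8 CPM in vehicle, most of it EPCAM, and none of the 15 was at 0 in all libraries. Whether the higher B-cell marker sum has a part in any HMG value was not tested. In bulk samples such as these, fewer cells that express a gene and less RNA of it per cell cannot be told apart.

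The HMG genes took a smaller share of the reads after Spautin-1. The 9 members together held 0.532% and 0.563% of all reads in the Spautin-1 libraries, against 0.718% and 0.806% in the vehicle libraries. Their fitted log2 fold changes (Spautin-1 over vehicle) were negative for 8 of 9, as for 9324 of all 18368 genes tested. The 8 include HMGA1 and HMGN1, whose groups overlapped. The median was -0.39 over the members and -0.01 over all genes tested. All 9 members passed the filter on low counts. In the edgeR quasi-likelihood fit over all genes, 3 of 9 members (HMGB1, HMGB3 and HMGN2) were past the threshold, a Benjamini-Hochberg adjusted p under 0.05, in the lower direction, and 0 in the higher. Of all genes tested, 10.5% were past it in the lower direction, and 16.4% of the 7788 genes averaging 10 CPM or more. With DESeq2 the count was 3 lower and 0 higher, while 1832 of all 16587 genes given an adjusted p were lower and 1948 higher. Both Spautin-1 libraries lay below both vehicle libraries for 6 of 9 members, as they did for 30.6% of all genes tested and 34.6% of those averaging 10 CPM or more. They lay above both for 1 member, HMGN5, as for 30.8% of all genes tested.

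**Figure D1:**
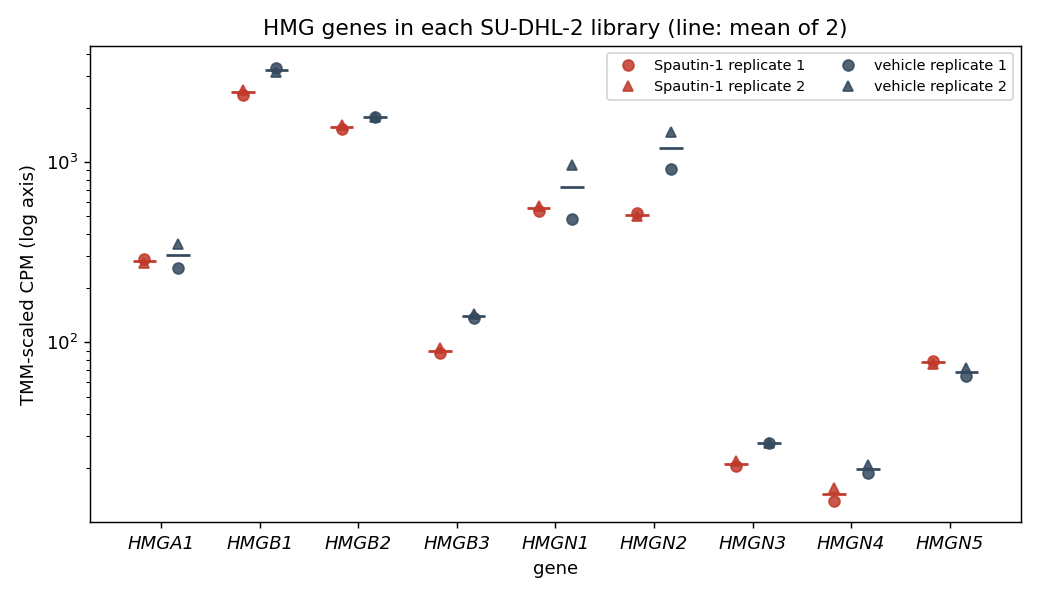
TMM-scaled CPM (log axis) of the 9 HMG genes in each library, Spautin-1 left and vehicle right for each gene, with a line at the mean of the 2 libraries. HMGN2 stood at 520 and 502 CPM in Spautin-1, against 922 and 1466 CPM in vehicle, and the 2 vehicle libraries stand far apart for HMGN1.

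HMGB1 (chromosome 13, 30456704 to 30617597, minus strand, GRCh38), the most abundant HMG gene by reads, was at 2371 and 2507 CPM in Spautin-1 and at 3351 and 3179 CPM in vehicle. The groups did not overlap, and each pair of replicates lay close together. The log2 fold change was -0.42 ± 0.08 (SE), which is 1.34-fold lower in Spautin-1.

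HMGB2 (chromosome 4, 173331376 to 173334432, minus strand), a close relative known from proliferating and lymphoid cells and, like HMGB1, a helper of the recombinase that joins antigen receptor genes, was at 1522 and 1603 CPM in Spautin-1 and at 1787 and 1780 CPM in vehicle. The groups did not overlap, but the distance between them was small, with a log2 fold change of -0.19 ± 0.08, and HMGB2 did not pass the threshold. Without vehicle replicate 1 the fold change was the same to 2 decimals and it did pass. The ratio of HMGB1 to HMGB2 reads, which does not depend on the scaling of libraries, was 1.56 in both Spautin-1 libraries, against 1.88 and 1.79 in the vehicle libraries.

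HMGB3 (chromosome X, 150980509 to 150990771, plus strand), the HMGB gene known from embryos and blood progenitors, was at 87.6 and 92.5 CPM in Spautin-1 and at 136 and 143 CPM in vehicle. It had the lowest fold change of the HMGB genes, -0.63 ± 0.11 or 1.55-fold lower, with tight replicates in both groups. HMGB4, the testis-type family member outside the group, had 0 reads in all 4 libraries, and a count of 0 allows up to 3 reads, or 0.0776 to 0.0866 CPM per library, counting error only.

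HMGN2 (chromosome 1, 26472440 to 26476642, plus strand), an abundant nucleosome-binding protein, showed the lowest fold change of all 9 members. It stood at 520 and 502 CPM in Spautin-1 and at 922 and 1466 CPM in vehicle. The vehicle libraries were 1.59-fold apart, a wider distance than in all but 2.53% of genes averaging 10 CPM or more. Both vehicle libraries were far above the Spautin-1 libraries. The log2 fold change of -1.22 ± 0.16, or 2.34-fold lower, was -0.85 without vehicle replicate 2 and -1.52 without vehicle replicate 1, past the threshold each time.

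HMGN1 (chromosome 21, 39342315 to 39349647, minus strand), whose protein is linked to repair of ultraviolet damage in chromatin, did not separate the groups. It was at 536 and 572 CPM in Spautin-1 and at 482 and 965 CPM in vehicle. The Spautin-1 libraries lay between the vehicle libraries, which were 2.00-fold apart, a wider distance than in all but 0.27% of genes averaging 10 CPM or more. The log2 fold change of -0.39 ± 0.22 rested on vehicle replicate 2: it was 0.20 without that library and -0.80, past the threshold, without vehicle replicate 1. The ratio of HMGN2 to HMGN1 reads was 0.971 and 0.877 in Spautin-1, against 1.91 and 1.52 in vehicle, so these ratios separated the groups although HMGN1 itself did not.

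HMGN3 (chromosome 6, 79201245 to 79234689, minus strand), best known from endocrine tissue and the eye, was at 20.5 and 21.9 CPM in Spautin-1 and at 27.5 and 27.7 CPM in vehicle. Its groups did not overlap, at a log2 fold change of -0.38 ± 0.14, and it did not pass the threshold, but did so without vehicle replicate 1 (-0.39) or vehicle replicate 2 (-0.38). HMGN3 shares 144 exonic bases with HMGN3-AS1 on the opposite strand, which was at 5.92 and 5.69 CPM in Spautin-1 and 10.4 and 10.7 CPM in vehicle. The kit keeps strand, but no source here says if strand was used in counting, so reads over these bases could belong to either gene.

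HMGN4 (chromosome 6, 26538366 to 26546933, plus strand), the close relative of HMGN2, was at 13.2 and 15.6 CPM in Spautin-1 and at 18.7 and 20.7 CPM in vehicle, and it had the fewest reads of the members, 496 to 801 per library. The groups did not overlap at a log2 fold change of -0.45 ± 0.16, which did not pass the threshold and did so without vehicle replicate 1 (-0.53). HMGN5 (chromosome X, 81113699 to 81201913, minus strand), set apart from the others by a long acidic tail, was at 78.4 and 76.1 CPM in Spautin-1 and at 64.9 and 72.5 CPM in vehicle. It was the only member with a positive value, 0.17 ± 0.12, and was not past the threshold with all libraries or with any library left out.

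HMGA1 (chromosome 6, 34236873 to 34246231, plus strand), the AT-hook protein known from stem cells and many tumours, was at 289 and 276 CPM in Spautin-1 and at 258 and 352 CPM in vehicle. The Spautin-1 libraries again lay between the vehicle libraries, and the log2 fold change of -0.11 ± 0.13 turned to 0.13 without vehicle replicate 2, was 0.016 with an offset for GC content and was -0.32, past the threshold, without vehicle replicate 1. HMGA2, the second HMGA gene, had 2 reads in vehicle replicate 1 and 0 in the other libraries.

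**Figure D2:**
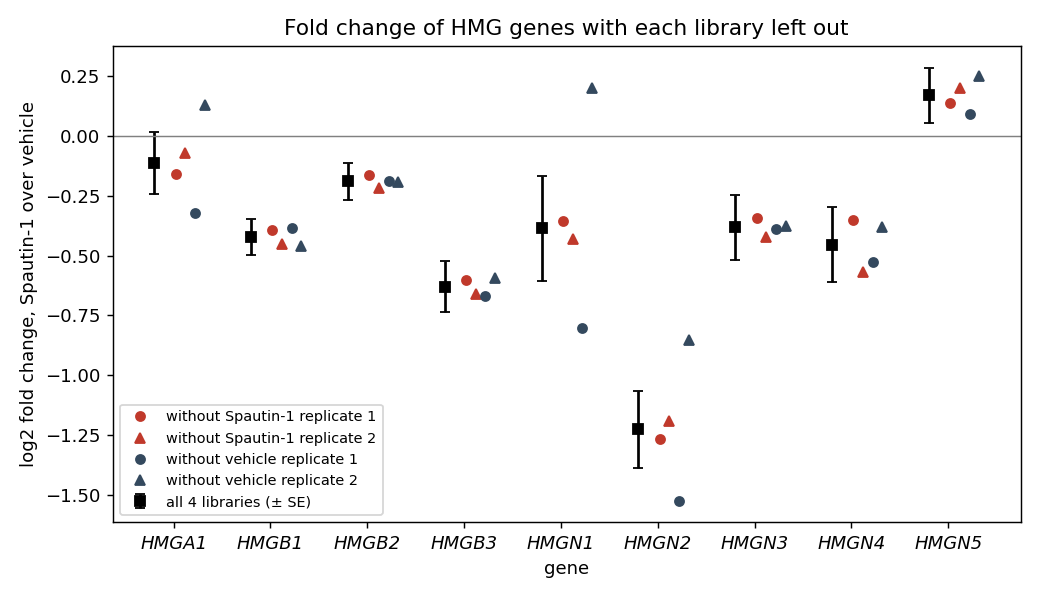
Log2 fold change (Spautin-1 over vehicle) of each HMG gene with all 4 libraries (black square, bar ± SE) and with each library left out in turn (red, a Spautin-1 library; dark blue, a vehicle library). HMGA1 and HMGN1 lie above 0 without vehicle replicate 2, at 0.13 and 0.20. HMGB1, HMGB2, HMGB3, HMGN2, HMGN3 and HMGN4 stay below 0 in every fit shown, and HMGN5 stays above it.

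Levels of different genes were compared as reads relative to library size and per kilobase of exonic length (RPKM). HMGB2 was highest, at 651 ± 23.8 RPKM in Spautin-1 and 743 ± 2.02 RPKM in vehicle (mean ± SD, n = 2 each), and ranked 39 of 12787 protein-coding genes tested. HMGB1 followed at 317 ± 12.4 RPKM in Spautin-1 and 424 ± 15.8 RPKM in vehicle, a value that is lowered by the 7696 exonic bases the count table gives it. Reads on the HMGB1 pseudogene rows, 104% to 122% of its own reads per library, are not in this value. Since the origin of those reads cannot be told, the order of HMGB1 and HMGB2 is not settled. HMGN2 came next, at 160 ± 4.06 RPKM in Spautin-1 and 374 ± 121 RPKM in vehicle, where it did not differ from HMGB1 beyond its spread. HMGN1 (110 ± 5.12 RPKM in Spautin-1, 144 ± 67.7 in vehicle) and HMGA1 (121 ± 3.89 in Spautin-1, 131 ± 28.5 in vehicle) came after it, and in vehicle their order lay within the spread. HMGB3 was at 23.0 ± 0.88 RPKM in Spautin-1 and 35.6 ± 1.21 in vehicle, and HMGN5 at 32.3 ± 0.67 in Spautin-1 and 28.8 ± 2.23 in vehicle, so HMGN5 stood above HMGB3 in Spautin-1 and below it in vehicle. HMGN3 (15.8 ± 0.77 RPKM in Spautin-1, 20.5 ± 0.12 in vehicle) and HMGN4 (7.24 ± 0.85 in Spautin-1, 9.91 ± 0.71 in vehicle) were lowest.

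The count table holds 157 pseudogene rows named after a member, 89 of them with at least 1 read. Nearly all of their reads, at least 97.2% in every library, lay on the 3 HMGB1 copies shown above, which were singled out after their values were seen. HMGB1P5 was counted almost as highly as HMGB1 itself. It was at 2111 and 2020 CPM in Spautin-1 and at 2750 and 3078 CPM in vehicle, which is 89.0% and 80.6% of the HMGB1 reads in Spautin-1 and 82.1% and 96.8% in vehicle, on 1210 exonic bases. HMGB1P6 was at 416 and 461 CPM in Spautin-1 and 506 and 524 CPM in vehicle, and HMGB1P10 at 141 and 132 CPM in Spautin-1 and 186 and 222 CPM in vehicle. All 3 were lower in Spautin-1 with no overlap, at log2 fold changes of -0.50 ± 0.08 for HMGB1P5, -0.23 ± 0.09 for HMGB1P6 and -0.58 ± 0.11 for HMGB1P10, of which that of HMGB1P6 was not past the threshold.

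The files cannot say which of these reads came from the HMGB1 gene, since no source here names the aligner or says how reads that match several places were handled. All 48 HMGB1 pseudogene rows together held 114% and 105% of the HMGB1 reads in Spautin-1, and 104% and 122% in vehicle. With each member's pseudogene rows added to it before the fit, the log2 fold change of HMGB1 was -0.44, against -0.42 without them, and 3 members were again past the threshold in the lower direction. For the other members the copies weighed little. The 38 HMGN2 rows held 3.44% and 3.75% of the HMGN2 reads in Spautin-1 and 3.82% and 3.08% in vehicle, most of them on HMGN2P3, which is 99.3% identical to HMGN2 over 273 bases. The rows named after HMGA1, HMGB2, HMGB3, HMGN1 and HMGN3 held at most 1.94% of their gene's reads in any library, and no row is named after HMGN4 or HMGN5.

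**Figure D3:**
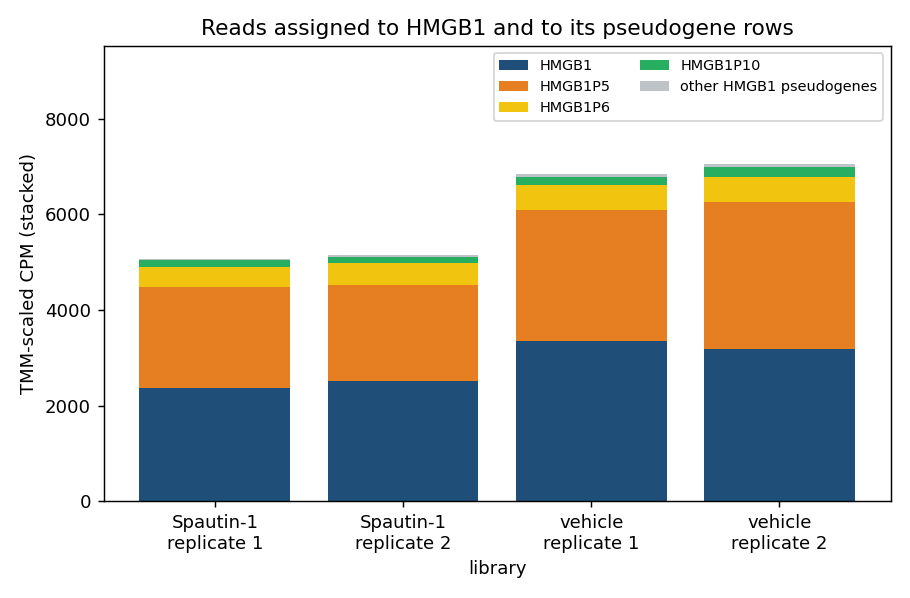
TMM-scaled CPM assigned to HMGB1 and, stacked on it, to its pseudogene rows in each library, Spautin-1 libraries left and vehicle libraries right. HMGB1P5 (orange) reaches 2111 and 2020 CPM in Spautin-1 and 2750 and 3078 CPM in vehicle, and the whole stack is lower in both Spautin-1 libraries.

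Of the 9 members, 8 matched an entry in the RefSeq table of promoters (GRCh38.p14), some with several start sites, 12 in all. The 250 bases before the first listed start are shown for the 3 members past the threshold, with capitals marking CCAAT or its reverse complement, the letters bound by the transcription factor NF-Y.
HMGB1, chr13:30465937-30466186, minus strand: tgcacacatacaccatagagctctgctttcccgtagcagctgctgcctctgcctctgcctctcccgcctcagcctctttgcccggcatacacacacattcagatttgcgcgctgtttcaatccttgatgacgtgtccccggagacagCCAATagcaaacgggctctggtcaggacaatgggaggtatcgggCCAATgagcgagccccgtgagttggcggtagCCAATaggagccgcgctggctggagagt
HMGB3, chrX:150983085-150983334, plus strand: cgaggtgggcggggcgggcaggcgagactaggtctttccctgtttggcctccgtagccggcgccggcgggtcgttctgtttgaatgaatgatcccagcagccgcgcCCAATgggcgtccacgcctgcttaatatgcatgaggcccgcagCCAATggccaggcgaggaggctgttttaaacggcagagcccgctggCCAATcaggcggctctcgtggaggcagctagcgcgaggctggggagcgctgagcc
HMGN2, chr1:26472190-26472439, plus strand: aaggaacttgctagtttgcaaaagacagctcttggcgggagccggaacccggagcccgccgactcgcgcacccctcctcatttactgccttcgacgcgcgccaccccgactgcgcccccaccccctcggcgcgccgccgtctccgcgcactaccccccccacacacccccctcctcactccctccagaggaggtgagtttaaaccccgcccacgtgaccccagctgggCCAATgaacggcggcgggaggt
The windows shown for HMGB1 and HMGB3 each held CCAAT 3 times, counting both strands, and that of HMGN2 once. Windows at the other listed starts held it 1 and 0 times for HMGB1 and 0 times for HMGB3. Of 35116 promoter windows in the table, 32.0% held CCAAT at least once and 2.93% at least 3 times. Among all 12 windows of the members, 7 held it, in 6 of the 8 genes, including 2 matches each for HMGN1 and HMGN3, whose values did not pass the threshold. GGGCGG, the GC box bound by SP1, was found on either strand in windows of 6 of the 8 genes and in 42.6% of all windows, and TATAAA in none of the 8, against 10.7% of all windows. A gene with several windows has more chances to hold a match than a single window. Shares of genes and shares of windows are therefore not like for like. A match is a description of the letters only.

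Other proteins with an HMG box made a list of 28 genes, of which 26 were tested and 17 were not past the threshold in either direction. In the list 6 fell and 3 rose in the same edgeR fit, beside 10.5% lower and 11.5% higher among all genes tested. Of the 7788 genes averaging 10 CPM or more, 1274 were lower and 1309 higher. The median log2 fold change of the list was -0.04. SOX5, a developmental transcription factor, rose to 45.6 and 39.6 CPM in Spautin-1, against 13.6 and 11.4 CPM in vehicle (log2 fold change 1.77 ± 0.15, edgeR adjusted p = 1.16e-05). HBP1, a repressor that slows the cell cycle, rose to 33.2 and 30.1 CPM in Spautin-1, against 12.8 and 11.2 CPM in vehicle (1.40 ± 0.15, edgeR adjusted p = 6.82e-05). PBRM1, a subunit of a SWI/SNF remodelling complex, fell by 0.69 ± 0.14 on the log2 scale (edgeR adjusted p = 0.00401), as did the histone methyltransferase KMT2D by 0.64 ± 0.14 (0.00626), UBTF, which drives ribosomal RNA transcription, by 0.41 ± 0.09 (0.00677) and TFAM, which packages mitochondrial DNA, by 0.46 ± 0.13 (0.0208). SSRP1, a subunit of the histone chaperone FACT and the most abundant gene of the list per length, was at 2383 CPM in Spautin-1 and 2441 CPM in vehicle (-0.03 ± 0.07, edgeR adjusted p = 0.781). Without Spautin-1 replicate 1 and without Spautin-1 replicate 2, 3 and 1 genes of the list were lower. TFAM was no longer past the threshold in either case, nor were UBTF and KMT2D without Spautin-1 replicate 2. The log2 fold change of TFAM was then -0.46 and -0.47, that of UBTF -0.34 and that of KMT2D -0.53. Fewer of all genes tested passed in these fits as well. Without vehicle replicate 1, 5 genes were higher.

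Linker histones, which HMG proteins compete with on nucleosomes, were counted at low levels. Of 8 H1 genes, 3 had enough reads to be tested and 0 passed in either direction by edgeR or DESeq2, with 0 at an unadjusted p under 0.05. H1-2, the most abundant, was at 19.2 and 19.1 CPM in Spautin-1 and 19.4 and 19.4 CPM in vehicle (log2 fold change -0.02 ± 0.14). Most H1 mRNAs lack a poly(A) tail, and the libraries were made with an mRNA kit.

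Partners of HMGB proteins in chromatin and DNA repair made a list of 19, of which 17 were tested. By edgeR 5 fell and 2 rose, with a median of -0.18, beside 10.5% lower and 11.5% higher among all genes tested. Of the 7788 genes averaging 10 CPM or more, 1274 were lower and 1309 higher. FEN1, the flap endonuclease of base excision repair, fell to 113 CPM in Spautin-1, against 197 CPM in vehicle (-0.80 ± 0.10, edgeR adjusted p = 0.000239). The B-cell transcription factor POU2F2 fell by 0.60 ± 0.10 on the log2 scale (edgeR adjusted p = 0.00177) and SUPT16H, the other subunit of FACT, by 0.51 ± 0.09 (0.00179). The glucocorticoid receptor NR3C1, whose DNA binding HMGB proteins assist, rose to 97.7 CPM in Spautin-1, against 51.9 CPM in vehicle (0.91 ± 0.14, edgeR adjusted p = 0.000851). ANP32B, a histone chaperone and the most abundant of the list per length, rose by 0.32 ± 0.08 (edgeR adjusted p = 0.0144). That call was lost without Spautin-1 replicate 1, at a log2 fold change of 0.29. In this list 8 genes were lower without vehicle replicate 1, and 1 was higher without Spautin-1 replicate 1. The recombinase genes RAG1 and RAG2 had too few reads to be tested.

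Genes linked to the acetylation, export, release or receptors of HMGB1 made a list of 22, of which 20 were tested. Deacetylases, CXCL12 and BECN1 are among them. By edgeR 6 fell and 1 rose, with a median of -0.36, beside 10.5% lower and 11.5% higher among all genes tested. Of the 7788 genes averaging 10 CPM or more, 1274 were lower and 1309 higher. PARP1, the DNA damage sensor that modifies HMGB1, fell to 615 CPM in Spautin-1, against 885 CPM in vehicle (-0.52 ± 0.09, edgeR adjusted p = 0.0013). SIGLEC10, an inhibitory receptor that with CD24 restrains responses to HMGB1, fell to 17.6 CPM in Spautin-1, against 32.7 CPM in vehicle (-0.89 ± 0.14, edgeR adjusted p = 0.00107). The deacetylase HDAC1 fell by 0.42 ± 0.10 on the log2 scale (edgeR adjusted p = 0.0126) and the nuclear export receptor XPO1 by 0.41 ± 0.11 (0.0186). Neither passed without Spautin-1 replicate 1 or without Spautin-1 replicate 2, fits in which fewer of all genes tested passed. The log2 fold changes were then -0.43 and -0.41 for HDAC1, and -0.48 and -0.33 for XPO1. CXCR4, the receptor that HMGB1 engages together with CXCL12, rose to 82 and 65 reads in Spautin-1, against 6 and 10 reads in vehicle (3.21 ± 0.50, edgeR adjusted p = 0.000882). AGER, which encodes the HMGB1 receptor RAGE, and TLR4 were the other 2 that fell, and they are named after their values were seen. AGER was at 1.37 CPM in Spautin-1 and 3.15 CPM in vehicle (-1.19 ± 0.32, edgeR adjusted p = 0.0208), and TLR4 at 0.393 CPM in Spautin-1 and 1.40 CPM in vehicle (-1.83 ± 0.53, edgeR adjusted p = 0.0271). AGER did not pass without Spautin-1 replicate 2 (log2 fold change -0.92), nor TLR4 without Spautin-1 replicate 1 (-1.43) or vehicle replicate 1 (-1.72). Without Spautin-1 replicate 2, 3 genes of the list were lower, and without vehicle replicate 2, 2 were higher.

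**Figure D4:**
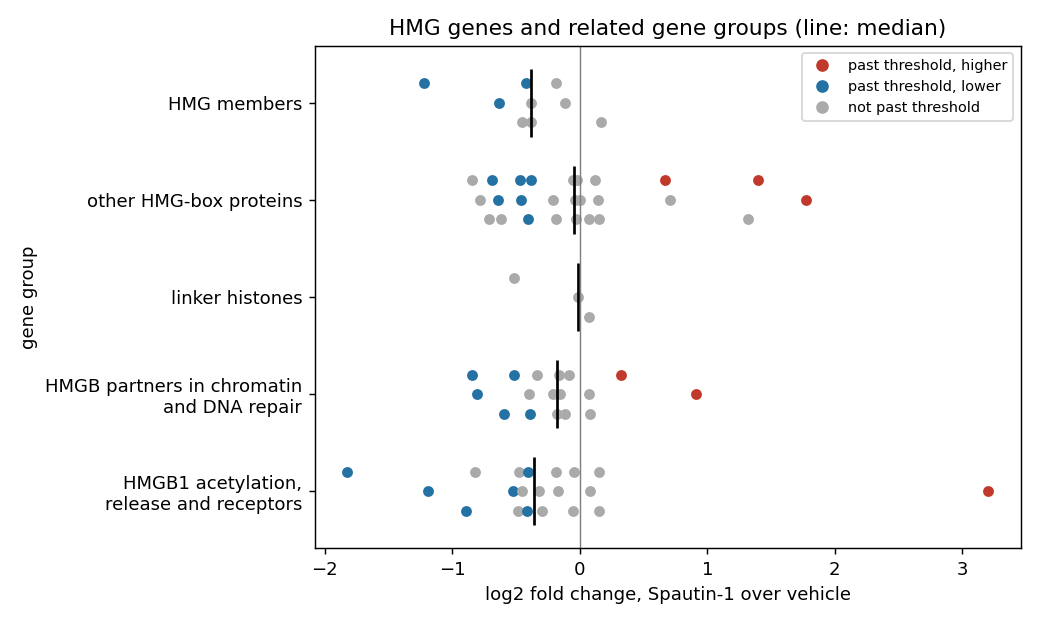
Log2 fold changes (Spautin-1 over vehicle) of the tested genes of the HMG group and of 4 related gene groups, each dot a gene, coloured by whether it was past the threshold of the edgeR test over all genes, with a line at the group's median. The medians run from -0.39 for the HMG genes to -0.02 for the linker histones.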

How the data were processed

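Per the labels' protocols, stranded mRNA libraries were prepared from TRIzol RNA. The submitters' processing notes name Trimmomatic 0.36, featureCounts from Subread 1.5.1, edgeR 3.12.1 and the GRCh38 build. No source here names the aligner, says which annotation or strand setting was used, or what was done with multi-mapped reads. The authors deposited unnormalized read counts for 61267 genes, beside each gene's exonic length, per the file headers. Between 75.5% and 78.1% of the counts from 1 to 10 were even numbers in each library; whether both mates of a pair were counted is not stated.

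The fit used edgeR 4.0.16 under R 4.3.3. Genes were kept by filterByExpr (minimum count 10, minimum total count 15), which left 18368, and libraries were scaled by TMM. Spautin-1 was compared with vehicle by a two-sided quasi-likelihood F test at a Benjamini-Hochberg threshold of 0.05 across every gene tested, on 2 residual degrees of freedom. SEs come from the log2 fold change and its F statistic. DESeq2 1.42.0 and limma-voom (limma 3.58.1) were alternatives, with other scalings, filters, a replicate block, loess offsets (span 0.3) for GC content (GENCODE 29, known for 95.7% of genes tested) and exonic length, each library left out, and pseudogene rows added to their gene. The procedure was tested on simulated data.

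The members and the 4 lists were chosen with earlier results of these data known. The genes named are the 9 members, HMGA2 and HMGB4, and for each list up to 4 called genes by smallest p in the direction with more calls, up to 2 in the other, and the most abundant gene per length. A gene that this rule names is not reported here. AGER, TLR4, RAG1, RAG2 and HMGN3-AS1 lie outside the rule and were named after their values were seen. H1 genes, listed under older symbols, were matched through RefSeq synonyms. Pseudogene identity is 100% minus the edits per base of the copy's first transcript against the closest transcript of its gene. Identity between coding genes is the share of identical columns in a global alignment of their longest coding sequences.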

Additional observations from a re-analysis of the deposited data

How the results depend on the processing

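HMGB1, HMGB3 and HMGN2 kept a negative fold change past the threshold under all 14 alternatives each. The 3 members past the threshold in the lower direction became 5 with library size scaling and 5 with the GC offset. They were also 5 when genes had to reach 1 CPM in 2 libraries. Lower calls over all genes rose as well, from 1933 of 18368 to 2244 with library size scaling and 2367 with the GC offset. With the 1 CPM filter they were 2055 of 14600. The cause was not tested. A fit with 1 library left in a group assumes that this library varies like the other group. More members were lower past the threshold without vehicle replicate 1, the most of any setting, and also without vehicle replicate 2. In both of these fits a larger share of all genes tested was lower as well. HMGA1 was at 0.016 with the GC offset and at 0.13 without vehicle replicate 2, with a range of -0.32 to 0.13 over libraries left out, and HMGN1 at 0.20 without vehicle replicate 2, with a range of -0.80 to 0.20. H1-2 was at 0.057 with the GC offset and at 0.070 with the length offset.

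Over all genes tested, 2112 were higher and 1933 lower with all libraries, 1244 higher and 1232 lower without Spautin-1 replicate 1, and 1067 higher and 780 lower without Spautin-1 replicate 2. When each library was left out in turn, 2 to 5 of the other HMG-box genes were higher and 1 to 8 lower, 1 to 2 of the HMGB partners were higher and 4 to 8 lower, and 1 to 2 of the genes for HMGB1 acetylation, release and receptors were higher and 3 to 8 lower.

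With the replicate number as a block, 6 members were lower, as were 2485 of all 18368 genes tested. The labels do not say that the numbers mark a shared culture or day, and the deviations of the 2 libraries numbered 1 from their group means correlated at 0.0581 across genes.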
